A study of Mus musculus with 25 samples.

Results

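The ribonuclease A family of the mouse lies in a gene cluster on chromosome 14, and 7 of its genes, Rnase4, Rnase9, Rnase10, Rnase11, Rnase12, Rnase13 and Ang, were followed across the sperm RNA of 5 conditions. They were taken by gene symbol from a table of 24358 genes, and all 7 had a valid estimate in each of the 5 conditions. The counts of 6 of them followed 3 patterns, and Rnase12 differed least between the conditions. Rnase10 and Rnase13 had high counts in FVB.D300.F1 alone, Rnase9 and Rnase11 had their largest counts in the FVB/N conditions, and Rnase4 and Ang had theirs in the first generation of C57BL/6J. Not all of these differences passed the threshold set below or exceeded the error of the model.

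The ribonucleases of this family are small secreted proteins held together by disulfide bonds. Rnase4 and Ang encode active enzymes, and angiogenin, the product of Ang, cuts transfer RNAs in the anticodon loop during stress. Rnase9 to Rnase13 encode relatives found mainly in the male reproductive tract, which are described as lacking residues that the active enzymes use to cut RNA. The best known is Rnase10, a secretory protein of the proximal epididymis that sperm need in order to pass from the uterus into the oviduct.

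The study asked how prenatal exposure to di(2-ethylhexyl)phthalate (DEHP), a plasticizer that disturbs sex hormone signalling, acts on the male offspring of 2 inbred strains. Pregnant females received 300 mg/kg/day DEHP (D300) or only the corn oil vehicle (CTL) by mouth from embryonic day 9 to 19. The C57BL/6J sons of vehicle females made up C57.CTL.F1, those of DEHP females C57.D300.F1, and the FVB/N sons likewise FVB.CTL.F1 with vehicle and FVB.D300.F1 with DEHP. C57.D300.F2 were C57BL/6J males obtained from C57.D300.F1 males and unexposed females, and no vehicle lineage of that second generation was analysed here. Values called with vehicle or with DEHP are those of the F1 conditions of a strain. All males were 14 weeks old, and their sperm had swum out of incised cauda epididymides.

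Each condition comprised 5 all-RNA-seq libraries, 25 in total. The 10 libraries of C57BL/6J sons (F1) were taken over from earlier work, and the other 15 were newly made. A difference between these library sets therefore cannot be told apart from a difference of strain or generation in any comparison that crosses them. The table gives 1 estimated fragment count per gene and condition, which combines the 5 libraries, and its variance under the model of the Cuffdiff program. No value of a single library was used, so no difference has a replicate check, and no test was run. Errors are given as the SD of the model (value ± SD). The counts summed to 8602900 in C57BL/6J with vehicle, 7748902 with DEHP and 6921688 in the second generation, and 7568129 in FVB/N with vehicle and 8278486 with DEHP. A count of 3 was set as the limit of detection and covers counting error only.

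Sperm RNAs were present in all conditions, at very unequal levels. The 8 markers of sperm and late germ cells were all above the limit in every condition, and their counts summed to 83801 in C57BL/6J with vehicle, 70309 with DEHP and 28117 in the second generation, and 6862 in FVB/N with vehicle and 8143 with DEHP. Smcp, a protein of the sperm mitochondrial capsule, led the list in the C57BL/6J conditions, and Odf1, of the outer dense fibres of the tail, led it in the FVB/N conditions. In such bulk samples, fewer cells of a type and less RNA per cell cannot be told apart.

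The ribonuclease genes were expressed at very different levels. Per kilobase of exon, Rnase4 came first in C57.CTL.F1 with 1226 counts per kb, followed by Rnase12 with 1015, Ang with 301, Rnase11 with 150, Rnase9 with 47.0, Rnase10 with 11 and Rnase13 with 1.60. In FVB.D300.F1 the order of these levels was another one. Rnase12 had 1830 counts per kb and Rnase9 had 1737, ahead of Rnase11 with 558, Rnase10 with 460, Rnase4 with 234, Rnase13 with 93.8 and Ang with 12.6. Rnase12 was thus among the highest of the 7 genes per kb in both of these conditions, while Ang went from the third place to the last. The summed count of the 7 genes was 3236 in C57BL/6J with vehicle, 2932 with DEHP and 2103 in the second generation, and 2631 in FVB/N with vehicle and 4991 with DEHP.

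**Figure D1:**
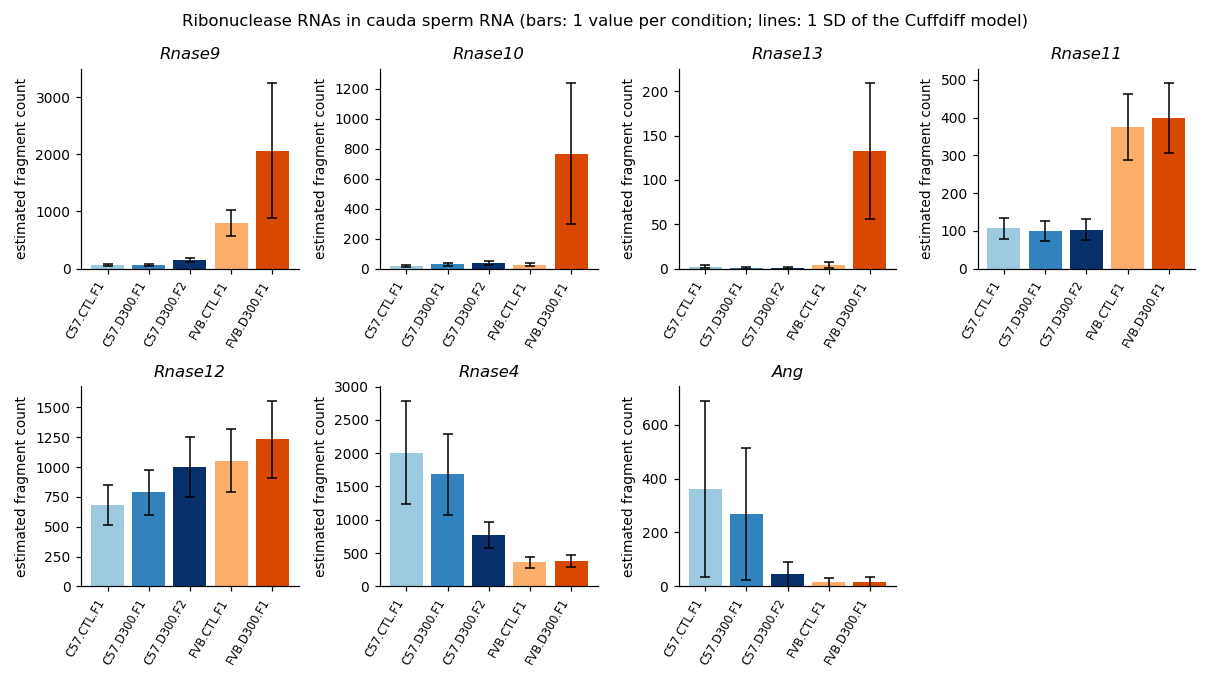
Estimated fragment counts (y axis, linear, from 0) of the 7 ribonuclease genes in the 5 conditions (x axis), with 1 bar per condition and black lines for 1 SD of the Cuffdiff model, cut off at 0. Rnase10 reached 766 counts and Rnase13 133 counts in FVB.D300.F1, while Rnase4 and Ang were highest in C57.CTL.F1 with 2007 and 362 counts.

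Rnase10, Rnase13 and Rnase9 had their highest counts in FVB.D300.F1, above the next condition by more than the SD of the difference. Rnase11 and Rnase12 were also highest there, but within that SD, and their windows are not shown. The 250 bases before the start sites of Rnase10, Rnase13 and Rnase9 are shown because these genes were high together in FVB.D300.F1. They come from RefSeq on GRCm38, the build that is also called mm10. Rnase10 lies at chr14:51007751-51010758 on the plus strand with 3 blocks of exon, and its first window is chr14:51007501-51007750. Rnase9 lies at chr14:51038459-51041869 on the minus strand with 2 blocks of exon, and its window is chr14:51041868-51042117, which reaches 2 bases into that GENCODE span because the RefSeq start differs by 2 bases. Rnase13 lies at chr14:51921362-51922773 on the minus strand with 1 block of exon, and its window is chr14:51922774-51923023. All 3 are written 5′ to 3′ on the strand of the gene. Capitals mark matches to a half-site of the androgen and glucocorticoid receptors (AGAACA, or TGTTCT on the other strand) and to the CCAAT box (CCAAT, or ATTGG).
Rnase10: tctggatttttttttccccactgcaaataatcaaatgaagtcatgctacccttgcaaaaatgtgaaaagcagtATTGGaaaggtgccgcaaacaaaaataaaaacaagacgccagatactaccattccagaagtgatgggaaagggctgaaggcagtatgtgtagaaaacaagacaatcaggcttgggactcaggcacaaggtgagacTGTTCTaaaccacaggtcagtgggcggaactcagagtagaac
Rnase9: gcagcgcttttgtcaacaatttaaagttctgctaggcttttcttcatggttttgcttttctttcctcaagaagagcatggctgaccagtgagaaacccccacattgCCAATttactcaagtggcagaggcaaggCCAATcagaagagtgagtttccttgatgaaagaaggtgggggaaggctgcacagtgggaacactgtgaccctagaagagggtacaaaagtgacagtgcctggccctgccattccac
Rnase13: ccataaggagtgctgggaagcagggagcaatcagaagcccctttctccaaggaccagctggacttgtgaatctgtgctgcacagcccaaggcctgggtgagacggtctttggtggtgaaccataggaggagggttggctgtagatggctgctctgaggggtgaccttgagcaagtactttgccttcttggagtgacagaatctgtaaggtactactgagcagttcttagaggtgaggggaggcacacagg
The Rnase10 window held 1 TGTTCT, from 42 to 37 bases before the start, and 1 ATTGG. RefSeq gives Rnase10 a second start, whose window, chr14:51007679-51007928, held 1 TGTTCT from 220 to 215 and 1 AGAACA from 183 to 178 bases before it and no CCAAT box. Both Rnase10 starts are also starts of GENCODE transcripts, and which of them the sperm RNA came from was not tested. The Rnase9 window held 2 CCAAT, from 144 to 140 and from 116 to 112 bases before the start. The Rnase13 window matched none of the motifs searched, which also included a forkhead motif (TGTTTAC or GTAAACA) and a TATA box (TATAAA or TTTATA). Of 32536 promoter windows of all genes, 16.0% held the receptor half-site, 33.8% the CCAAT box, 3.17% the forkhead motif and 12.3% the TATA box. A match describes letters only and does not show that a factor binds. The G and C content was 43.2% for Rnase10, 48.4% for Rnase9 and 54.4% for Rnase13, against a median of 52.4% over all windows.

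Rnase10 RNA was scarce everywhere but in FVB.D300.F1. It had 18.3 ± 7.09 counts in C57BL/6J with vehicle, 27.5 ± 10 with DEHP and 36.3 ± 12 in the second generation, and 25.3 ± 9.40 in FVB/N with vehicle and 766 ± 470 with DEHP. The lower 4 values did not differ from their neighbours in the order by more than the SD of the difference, and FVB.D300.F1 lay above them by more than that SD. Rnase13, a less studied gene of the family, was likewise highest in FVB.D300.F1, at a lower level. It had 2.27 ± 2.0 counts in C57BL/6J with vehicle, 0.394 ± 1.0 with DEHP and 0.496 ± 1.0 in the second generation, and 4.40 ± 3.32 in FVB/N with vehicle and 133 ± 76.6 with DEHP. All 3 C57BL/6J values of Rnase13 were under the limit of detection, FVB.CTL.F1 was just over it, and FVB.D300.F1 was the only condition with more than 10 counts.

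Rnase9, whose product is secreted by the epididymis, was already high in FVB/N without DEHP. Its counts were 55.9 ± 17.5 in C57BL/6J with vehicle, 67.1 ± 20.1 with DEHP and 149 ± 38.1 in the second generation, and 797 ± 221 in FVB/N with vehicle and 2065 ± 1178 with DEHP. Each step in this order exceeded the SD of the difference except that from C57.CTL.F1 to C57.D300.F1. From the lowest to the highest condition the counts differed 36.9-fold for Rnase9 and 41.8-fold for Rnase10.

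The counts of these 3 genes in FVB.D300.F1 were less certain under the model than those of other genes at the same level. The coefficient of variation in that condition was 0.571 for Rnase9, 0.615 for Rnase10 and 0.578 for Rnase13. Genes of similar count, with a ratio of the smaller to the larger count of at least 0.8, had medians of 0.284, 0.243 and 0.258. In the other 4 conditions Rnase9 and Rnase10 had coefficients close to such medians, for example 0.277 against 0.244 for Rnase9 in FVB.CTL.F1. Whether the 5 libraries of FVB.D300.F1 differed in these RNAs was not tested.

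Rnase11 and Rnase12 were the steadiest of the 7 genes. Rnase11 lies at chr14:51049451-51050163 and Rnase12 at chr14:51056698-51057661, both on the minus strand next to Rnase9. Rnase11 had 107 ± 28.2 counts in C57BL/6J with vehicle, 99.0 ± 26.3 with DEHP and 103 ± 28.1 in the second generation, and 375 ± 87.8 in FVB/N with vehicle and 398 ± 92.5 with DEHP. The C57BL/6J values were nearly equal, the FVB/N values were nearly equal, and only the step between the strains exceeded the SD of the difference. Rnase12 had 683 ± 168 counts in C57BL/6J with vehicle, 787 ± 191 with DEHP and 1001 ± 248.7 in the second generation, and 1053 ± 265 in FVB/N with vehicle and 1232 ± 320 with DEHP. Its highest value was 1.80-fold its lowest, and no neighbours in this order differed by more than the SD of the difference. C57.CTL.F1 lay below C57.D300.F2 and FVB.CTL.F1 by more than that SD, as C57.D300.F1 did below FVB.D300.F1.

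Rnase4 and Ang overlap on the chromosome, and both had lower counts in FVB/N than in C57BL/6J. Rnase4 spans chr14:51091077-51106151 and Ang chr14:51091150-51102009, both on the plus strand, so that Ang lies within the span of Rnase4. RefSeq gives both genes the same first start and promoter window, chr14:51090827-51091076 on the plus strand of GRCm38, which is shown because it belongs to both genes. In GENCODE a transcript of Rnase4 begins at this start, while the nearest start of Ang lies 73 bases away. Its only match, in capitals, was a CCAAT box from 55 to 51 bases before the start.
Rnase4 and Ang: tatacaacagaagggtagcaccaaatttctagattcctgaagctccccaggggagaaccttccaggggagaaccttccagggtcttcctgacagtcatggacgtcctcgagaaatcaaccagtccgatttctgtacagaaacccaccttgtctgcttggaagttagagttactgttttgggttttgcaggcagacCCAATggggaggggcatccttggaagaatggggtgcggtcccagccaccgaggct
A second Rnase4 window, chr14:51095750-51095999, held 1 AGAACA, and no GENCODE transcript of Rnase4 begins at its start. The window shown had a G and C content of 52.4%, equal to the median over all windows. Reads from the shared part cannot be assigned to either gene with certainty. Of the stretches of 30 bases in the annotated transcripts, 10.1% of those of Rnase4 and 22.0% of those of Ang also occurred in another gene. For Rnase4 these were 163 of 1607 stretches, all shared with Ang. For Ang they were 258 of 1172, of which 163 were shared with Rnase4 and the rest with Ang2, Ang4 or Ang pseudogenes. Rnase9, Rnase11, Rnase12 and Rnase13 shared none, and Rnase10 shared 0.367% of its stretches.

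Rnase4, a ribonuclease that prefers to cut after uridine, had 2007 ± 772 counts in C57BL/6J with vehicle, 1682 ± 609 with DEHP and 769 ± 192 in the second generation, and 362 ± 87.3 in FVB/N with vehicle and 383 ± 93.5 with DEHP. The first generation of C57BL/6J was highest, C57.D300.F2 intermediate, and both FVB/N conditions lowest. The values within each strain's first generation did not differ by more than the SD of the difference, whereas the other steps did. Ang had 362 ± 325 counts in C57BL/6J with vehicle, 269 ± 245 with DEHP and 44.7 ± 46.7 in the second generation, and 14.7 ± 17.6 in FVB/N with vehicle and 15.1 ± 19.2 with DEHP. The order was the same as for Rnase4 over a wider range, 24.5-fold against 5.55-fold. No neighbours in the order of Ang differed by more than the SD of the difference. Its coefficient of variation was 0.899 in C57BL/6J with vehicle and 1.27 in FVB/N with DEHP, against medians of 0.236 and 0.439 for genes of similar count.

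Log2 ratios were computed with 1 added to each count, wherever a gene reached 10 counts in 1 of the conditions compared. Genes with a ratio of 2 or more, or of -2 or less, were counted as higher or lower. Rnase13 had fewer than 10 counts in all conditions but FVB.D300.F1, so that 7 of the 7 genes entered comparisons with FVB.D300.F1 and 6 entered the others.

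**Figure D2:**
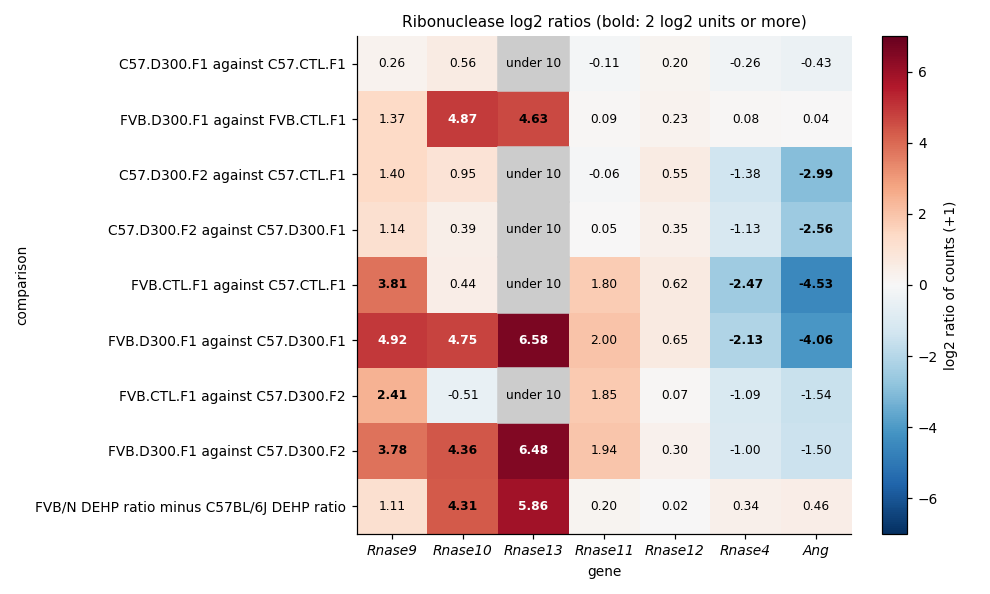
Log2 ratios (colour and printed value) of the 7 ribonuclease genes (columns) in the 8 comparisons and in the difference between the strains' DEHP ratios (rows), with values of at least 2 log2 units in bold and genes under 10 counts in both conditions in grey. Rnase10 and Rnase13 pass the threshold in each row that sets FVB.D300.F1 against another condition, and Ang passes it downward in 4 rows.

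To see the effect of prenatal DEHP within C57BL/6J, C57.D300.F1 was compared with C57.CTL.F1. None of the ribonuclease genes passed the threshold in either direction. Of all 16825 genes tested, 0.0357% were higher and 0.256% were lower. The log2 ratios were 0.56 for Rnase10, 0.26 for Rnase9, 0.20 for Rnase12, -0.11 for Rnase11, -0.26 for Rnase4 and -0.43 for Ang, and each difference was smaller than its SD. Rnase13 was under the limit of detection in both conditions. The median over the 7 genes, with Rnase13 included, was -0.11, against -0.01 over all genes tested. Over the 6 ribonuclease genes tested it lay between -0.11 and 0.20. The 6 seminal vesicle markers were far apart in this comparison, with summed counts of 217009 with vehicle and 69.4 with DEHP, and all 6 were lower, while no ribonuclease gene passed the threshold.

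In FVB/N the same exposure was accompanied by much higher Rnase10 and Rnase13. Rnase10 had 766 counts with DEHP and 25.3 with vehicle, a 30.3-fold difference (log2 ratio 4.87). Rnase13 had 133 and 4.40 counts, a 30.1-fold difference (log2 ratio 4.63). For both genes the difference exceeded its SD. The 2 genes higher and 0 lower of 7 stood beside 0.662% of 16471 genes higher and 0.0182% lower.

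Rnase9 was 2.59-fold higher with DEHP in FVB/N (log2 ratio 1.37), which was below the threshold, although the difference of 1268 counts exceeded its SD of 1199. Rnase12 had a log2 ratio of 0.23, and Rnase11, Rnase4 and Ang had ratios of 0.09, 0.08 and 0.04. The last 3 ratios changed sign when the counts were scaled to equal totals. The median over the 7 genes was 0.23, against 0.0046 over all genes tested.

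Markers of the proximal epididymis, where Rnase10 is normally made, were high in the same condition. Of the 12 markers, 11 were higher with DEHP than with vehicle in FVB/N and none was lower. Their summed counts were 24273 in C57BL/6J with vehicle, 28379 with DEHP and 30721 in the second generation, and 37509 in FVB/N with vehicle and 92466 with DEHP. The most abundant marker was Adam7, a membrane protein that epididymal cells pass to sperm, with 37310 counts with vehicle and 53922 with DEHP (log2 ratio 0.53), and it was the marker that did not pass the threshold. The secreted glutathione peroxidase Gpx5 went from 71.4 to 24121 counts and the lipocalin Lcn5 from 9.18 to 6686. In each of the other 4 conditions 5 of the 12 markers were at or under the limit of detection, among them Lcn6 and Cst11 in all 4. In the other tissue lists, Hbb-bs of blood (453 to 2276 counts, log2 ratio 2.33) and Pbsn of the prostate (0.559 to 18.4 counts, log2 ratio 3.64) were also higher with DEHP in FVB/N. The median over the blood and leukocyte list was 0.09, with S100a8 at -1.18 and Cd74 at -0.19. The part of RNA from these tissues in the counts of Rnase10, Rnase13 and Rnase9 was not tested.

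**Figure D3:**
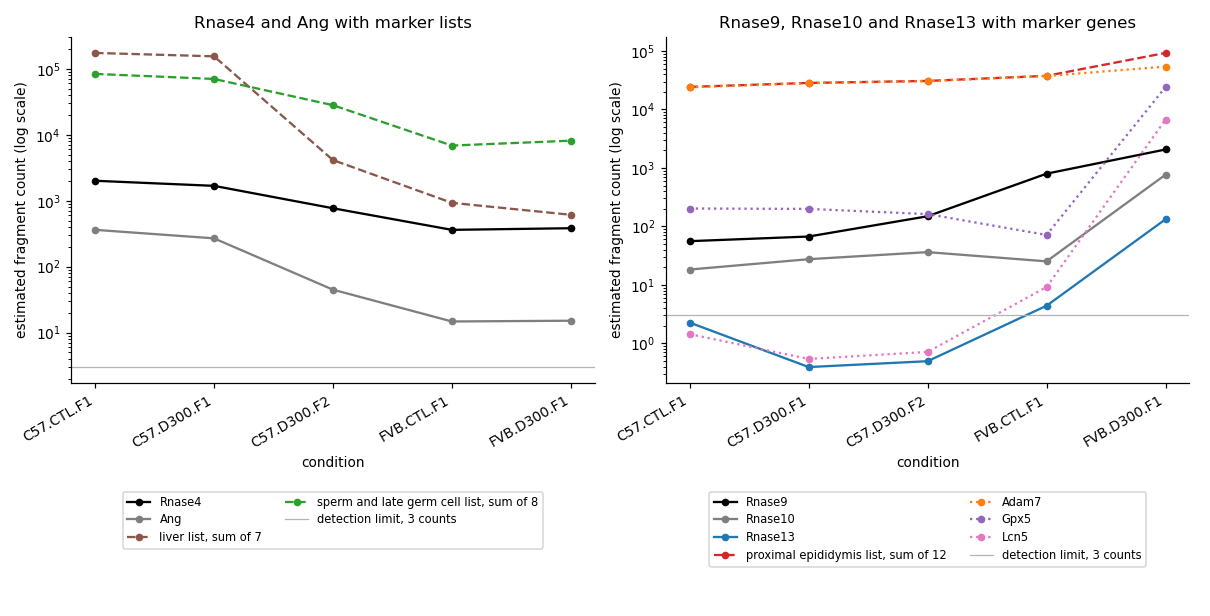
Estimated fragment counts (y axis, log scale) of ribonuclease genes (solid lines), sums of marker lists (dashed) and single proximal epididymis markers (dotted) in the 5 conditions (x axis), with lines only guiding the eye and a grey line at the limit of 3 counts. Rnase4, Ang and the liver and sperm lists are highest in the first generation of C57BL/6J, and Rnase10, Rnase13, Gpx5 and Lcn5 are highest in FVB.D300.F1.

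Of the markers of other epididymal cells, none of the 5 measured in all conditions, which were Cd52, Crisp4, Aqp9, Npc2 and Eppin, passed the threshold with DEHP in FVB/N. Their summed counts were 28082 in C57BL/6J with vehicle, 32714 with DEHP and 47047 in the second generation, and 37460 in FVB/N with vehicle and 36757 with DEHP, with Cd52 the most abundant. Since Cd52 made up most of this sum, the other markers are given singly. Crisp4 went from 173 to 435 counts with DEHP in FVB/N (log2 ratio 1.32), close to the ratio of Rnase9, and Npc2 from 2049 to 3278 (log2 ratio 0.68), while Eppin (0.17) and Aqp9 (-0.02) changed less. Crisp1 lacked a valid estimate in 3 of the conditions and was left out of the sum.

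The response to DEHP was then compared between the strains, as the FVB/N log2 ratio minus the C57BL/6J log2 ratio. Rnase10 (4.31) and Rnase13 (5.86) passed 2 log2 units, with 2 genes higher and 0 lower of 7. Of 17556 genes, 0.997% were higher in FVB/N by this measure and 0.228% were lower. The value of Rnase13 rested in part on C57BL/6J counts under the limit, and it was 4.63 with those counts set to 3. Rnase9 had a difference of 1.11 with an SD of 1.10, and the other 4 genes lay between 0.02 for Rnase12 and 0.46 for Ang, each within its SD.

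The second generation of the DEHP lineage was set against both first generation conditions of C57BL/6J. Ang was the gene that passed the threshold. Its log2 ratio was -2.99 against C57.CTL.F1, with 44.7 counts in C57.D300.F2 and 362 in the vehicle condition, which was 8.08-fold lower. Against C57.D300.F1 it was -2.56, or 6.01-fold lower. In both cases the difference in counts was smaller than its SD. Thus 0 genes were higher and 1 was lower in each comparison, beside 0.584% higher and 3.61% lower of 17114 genes against C57.CTL.F1, and 0.333% higher and 3.3% lower of 17133 genes against C57.D300.F1. With counts scaled to equal totals, 175 genes in place of 100 were higher against C57.CTL.F1, and 539 in place of 617 were lower.

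The other ribonuclease genes stayed below the threshold in the second generation. Rnase4 had log2 ratios of -1.38 against C57.CTL.F1 and -1.13 against C57.D300.F1, and Rnase9 had ratios of 1.40 and 1.14, all with differences beyond their SD. Rnase10 had a ratio of 0.95 and Rnase12 of 0.55 against C57.CTL.F1, also beyond their SD, and 0.39 and 0.35 against C57.D300.F1, within it. Rnase11 was at -0.06 and 0.05. The median over the 7 genes, with Rnase13 included, was -0.06 against C57.CTL.F1 and 0.10 against C57.D300.F1. That over all genes tested was -0.04 and -0.05. Rnase13 was under the limit in these conditions and was not tested. Over the 6 ribonuclease genes tested, the median lay between -0.06 and 0.55 against C57.CTL.F1. Against C57.D300.F1 it lay between 0.05 and 0.35.

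Liver RNAs were lower in C57.D300.F2 alongside Ang and Rnase4, which are both also expressed in hepatocytes. The 7 liver markers were all lower in the second generation, against C57.CTL.F1 as well as against C57.D300.F1. Their summed counts were 174469 in C57BL/6J with vehicle, 154915 with DEHP and 4137 in the second generation, and 929 in FVB/N with vehicle and 612 with DEHP, and Alb, serum albumin, was the most abundant in every condition. No liver marker was at or under the limit in any condition. None of the 8 sperm and late germ cell markers passed the threshold in these comparisons, although their median log2 ratio was -1.12 against C57.CTL.F1. All 6 seminal vesicle markers were lower against C57.CTL.F1, with a median of -8.95, whereas 4 of them were higher against C57.D300.F1. Pbsn and Tgm4 of the prostate and coagulating gland were higher in both comparisons, and of the blood and leukocyte markers S100a8 was higher against C57.D300.F1 (2.05) and Hbb-bs had a ratio of 0.99, while Lyz2 (-1.72), Ptprc (-0.97) and Cd74 (-0.72) had negative ratios there. The part of liver, germ cell or gland RNA in the counts of Ang and Rnase4 was not tested.

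The strains were compared first without DEHP, across the library sets. There Rnase9 was 14.3-fold higher in FVB/N than in C57BL/6J (log2 ratio 3.81), with 797 against 55.9 counts. Rnase4 was 5.55-fold lower (log2 ratio -2.47) and Ang 24.5-fold lower (log2 ratio -4.53). All 3 differences exceeded their SD. With 1 gene higher and 2 lower of 7, the background was 1.44% higher and 8.88% lower of 17086 genes.

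Rnase11 was 3.50-fold higher in FVB/N without DEHP (log2 ratio 1.80), below the threshold but with a difference beyond its SD. Rnase12 had a ratio of 0.62, beyond its SD, and Rnase10 of 0.44, within it, and Rnase13 was not tested. The median over the 7 genes, with Rnase13 included, was 0.62, against -0.03 over all genes tested. Over the 6 ribonuclease genes tested it lay between 0.44 and 0.62. The 8 sperm markers and the 7 liver markers were all lower in FVB.CTL.F1, with median log2 ratios of -3.27 and -7.31, so Rnase4 and Ang were lower in the company of both lists. All 6 seminal vesicle markers were lower too, with a median of -9.98. The 6 blood and leukocyte markers were lower in sum, with 6941 counts in C57BL/6J and 2714 in FVB/N with vehicle, and 1 of them, Lyz2, passed the threshold (log2 ratio -2.41). Ptprc (-1.39), Cd74 (-0.89) and Hbb-bs (-0.34) had negative ratios too, S100a8 had a positive one (0.97), and Hba-a1 was under the limit of detection.

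The epididymal markers were mixed in this comparison. Of the 5 markers of other epididymal cells, 1 was higher in FVB.CTL.F1 and none was lower. It was Eppin, with 158 counts in C57BL/6J and 776 in FVB/N with vehicle (log2 ratio 2.29), and the ratios of the others were 1.94 for Crisp4, 0.73 for Npc2, 0.40 for Cd52 and -0.07 for Aqp9. Of the 12 proximal epididymis markers 6 were tested, of which none was higher and 1, Cst8, was lower. Lcn5 was not tested, with 9.18 counts in FVB/N and 1.44 in C57BL/6J with vehicle and a ratio of 2.06. The part of these tissues in the strain differences was not tested.

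Between the DEHP-exposed strains, 5 of the 7 genes passed the threshold. Rnase9 was 30.8-fold higher in FVB.D300.F1 than in C57.D300.F1 (log2 ratio 4.92), and Rnase10 was 27.8-fold higher (log2 ratio 4.75). Rnase13 was at least 44.2-fold higher, taken against the limit of 3 counts, since C57.D300.F1 was under it. Rnase4 was 4.39-fold lower (log2 ratio -2.13) and Ang 17.8-fold lower (log2 ratio -4.06). With 3 genes higher and 2 lower, the background was 2.65% higher and 7.67% lower of 17377 genes. Rnase11 was 4.02-fold higher, and its log2 ratio of 1.996 lay just below the threshold and passed it under median-of-ratios or upper quartile scaling and with 0.1 in place of 1 added to the counts. Rnase12 had a ratio of 0.65, beyond its SD. The median over the 7 genes was 2.00, against -0.07 over all genes tested. Epididymal markers were higher as well, namely 10 of the 12 proximal ones and 2 of the 5 others, Crisp4 (log2 ratio 3.64) and Eppin (2.84), as were Pbsn of the prostate and 2 of the 6 seminal vesicle markers. Lower were all 7 liver markers, with a median log2 ratio of -7.65, 5 of the 8 sperm markers, with a median over the list of -2.71, and the leukocyte gene Cd74 (-2.06). The part of these tissues in the differences was not tested.

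The strains could also be compared within the newly made libraries, although C57.D300.F2 differs from the FVB/N conditions in generation. It also comes from a DEHP lineage, unlike FVB.CTL.F1, and from unexposed mothers, unlike FVB.D300.F1. Rnase9 was 5.34-fold higher in FVB.CTL.F1 than in C57.D300.F2 (log2 ratio 2.41), beyond its SD. It was the 1 gene higher, and 0 were lower, beside 0.707% higher and 2.5% lower of 16969 genes. Rnase11 was 3.64-fold higher (log2 ratio 1.85), Rnase4 2.13-fold lower (log2 ratio -1.09) and Ang 3.03-fold lower (log2 ratio -1.54). The differences of Rnase11 and Rnase4 exceeded their SD, and that of Ang did not. Rnase10 and Rnase12 had ratios of -0.51 and 0.07, within their SD.

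In FVB.D300.F1 against C57.D300.F2, Rnase9 was 13.8-fold higher (log2 ratio 3.78), Rnase10 21.1-fold higher (log2 ratio 4.36) and Rnase13 at least 44.2-fold higher. These 3 genes higher and 0 lower stood beside 1.58% higher and 2.02% lower of 17122 genes. Rnase11 had a ratio of 1.94, Rnase12 of 0.30, Rnase4 of -1.0 and Ang of -1.50, and only the differences of Rnase11 and Rnase4 among these 4 exceeded their SD. Of the 5 markers of other epididymal cells, 0 were higher with vehicle and 2 with DEHP in these comparisons, and none was lower. Eppin had ratios of 1.95 and 2.13, Crisp4 of 0.94 and 2.26 and Npc2 of 0.64 and 1.31, while Cd52, the most abundant, had -0.41 and -0.51 and Aqp9 -0.18 and -0.20. Of the 12 proximal epididymis markers 10 were higher in FVB.D300.F1, with a median over the list of 7.39. In FVB.CTL.F1 6 of the 12 were tested, of which none was higher and 1 was lower. Lcn5 was not tested there, with 9.18 counts against 0.714 in C57.D300.F2 and a ratio of 2.57. Of the 7 liver markers 3 were lower with vehicle and 5 with DEHP, of the 8 sperm markers 4 and 2, and of the 6 seminal vesicle markers 2 and 3. Lower were also Pbsn and Tgm4 with vehicle and the leukocyte gene S100a8 with DEHP.

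The strain difference of Rnase9 was above the threshold within the new libraries too, whereas those of Rnase4 and Ang were not. The medians over the 7 genes were 0.07 for FVB.CTL.F1 and 1.94 for FVB.D300.F1 against C57.D300.F2, and those over all genes tested were -0.0041 and -0.01. The first of these included Rnase13, which was not tested there. Over the 6 ribonuclease genes tested in FVB.CTL.F1, the median lay between -0.51 and 0.07. FVB/N reads were mapped to a C57BL/6J genome, and the effect of sequence differences on the counts was not tested.

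The genes with the most similar patterns were searched among 11237 others with at least 100 counts in 1 condition, by the root mean square difference of centred log2 counts over the 5 conditions. Rnase4 was closest to Pmfbp1 (0.04), Spem1 (0.05), Gm5617 (0.05), Knstrn (0.05) and Tcfl5 (0.07), of which Pmfbp1 and Spem1 are needed for normally shaped sperm. Ang was closest to C8a (0.10), a complement protein made by the liver, and to Plin2 (0.11) and Iigp1 (0.19). Ang and Rnase4 differed from each other by 0.92, more than from any of these genes.

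Rnase10 was closest to Teddm2 (0.21), Defb21 (0.29), Slc38a5 (0.33), Lrcol1 (0.35) and 9230110F15Rik (0.42). Rnase13 was closest to Adam28 (0.54), Spint5 (0.57), Spag11b (0.58), Defb18 (0.59) and Defb20 (0.60), and Defb18, Defb20 and Defb21 are beta-defensin genes. The minimum of 100 counts was met in FVB.D300.F1 alone by Rnase10, Rnase13 and each of these genes. The likeness therefore rests largely on the condition through which they entered the search. Teddm2 and Defb21 were near the limit of 3 elsewhere, with 3.58 and 2.94 counts in C57.CTL.F1. Rnase9 had AY761185 (0.46), Gm17746 (0.46), Sv2b (0.49), Ptprv (0.52) and Abca12 (0.52). AY761185 had 89.3 counts in C57BL/6J with vehicle, 125 with DEHP and 115 in the second generation, and 768 in FVB/N with vehicle and 2456 with DEHP, high in both FVB/N conditions as Rnase9 was.

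Rnase11 was closest to Alad (0.06), Nmb (0.07), Olfr856-ps1 (0.08), Dopey2 (0.08) and Akr1c19 (0.10), and Alad, an enzyme of heme synthesis, had 1532 counts in C57BL/6J and 5814 in FVB/N with vehicle. Rnase12 was closest to Tmem165 (0.03), C130046K22Rik (0.03), A730017L22Rik (0.04), Cog1 (0.04) and Dtx3 (0.04). Among the 6 ribonuclease genes with all counts above the limit, the closest pairs were Rnase11 with Rnase12 (0.72) and Rnase4 with Ang (0.92), and the farthest was Rnase9 with Ang (3.90). All distances of Rnase13, such as 1.01 from Rnase10, also those from its nearest genes, rest in part on counts under the limit, and pairs with it were left out of this order.

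The neighbours on the chromosome did not follow the ribonuclease genes as a block. From Rnase10 to Rnase13 the cluster spans 915 kb, with 20 other genes of the table between its ends and 2 on each side, and 12 of the 24 had at least 10 counts in 1 condition. With DEHP in FVB/N none of the 12 passed the threshold, while Rnase10 and Rnase13 at opposite ends of the cluster did. Over all 16471 genes tested, 0.662% were higher and 0.0182% lower, so the lack of calls does not set these neighbours apart from other genes. Eddm3b, an epididymal secretory gene between Ang and Rnase6, had 1641 counts with vehicle and 1648 with DEHP in that strain.

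Between the strains without DEHP, of the 12 neighbours tested Rnase1 was higher (log2 ratio 2.89) and Ndrg2 (-4.80) and Tppp2 (-3.62) were lower. Over all 17086 genes tested, 1.44% were higher and 8.88% lower. Ndrg2 and Tppp2, the latter a gene of sperm motility, lie next to Rnase13, and Ndrg2 had 4458 counts in C57BL/6J and 159 in FVB/N with vehicle. Rnase13 thus had neighbours that were low in FVB/N. Rnase9, higher in FVB/N, and Rnase4, lower there, lie 30.7 and 83.3 kb from Rnase10, measured between the lowest coordinates of the genes.

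**Figure D4:**
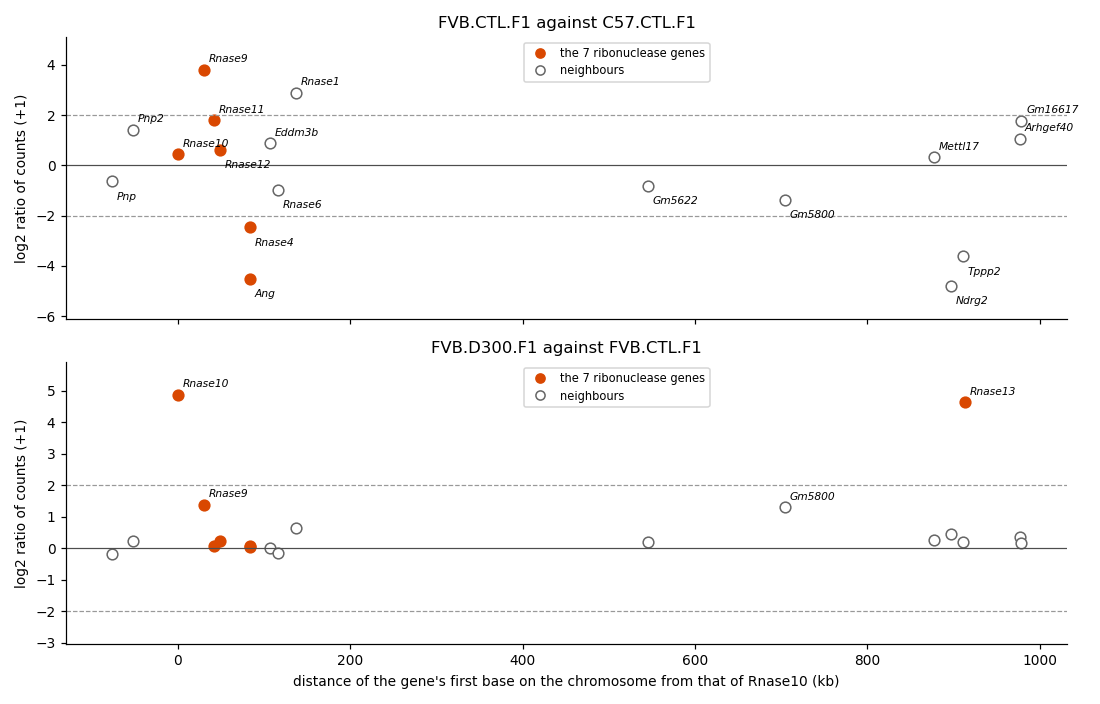
Log2 ratios (y axis) of the 7 ribonuclease genes (filled) and their neighbours (open) that reached 10 counts in either condition, by distance between lowest coordinates from Rnase10 in kb (x axis), with dashed lines at 2 and -2. In the upper panel Rnase9 (3.81) and Ang (-4.53) differ in opposite directions, and in the lower panel, where only genes beyond 1 log2 unit are named, Rnase10 (4.87) and Rnase13 (4.63) stand apart.

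Most other genes of the family had few counts. Of 17 further ribonuclease A genes in the table, Rnase1 and Rnase6 were the only ones with at least 10 counts in any condition, and the eosinophil ribonucleases (Ear genes), Rnase2a, Rnase2b and Ang2 to Ang6 stayed under 10 counts. Rnase1, the pancreatic type ribonuclease, had 18.5 counts in C57BL/6J with vehicle, 26.0 with DEHP and 52.7 in the second generation, and 143 in FVB/N with vehicle and 227 with DEHP. It was high in FVB/N like Rnase9, and its log2 ratio was 3.08 between the DEHP-exposed strains and 0.66 with DEHP in FVB/N. Rnase6 had 43.4, 50.1, 45.5, 21.7 and 19.4 counts in the same order of conditions.

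Rnh1, which encodes the inhibitor that binds ribonucleases of this family, was nearly level, with 672 counts in C57BL/6J with vehicle, 705 with DEHP and 721 in the second generation, and 711 in FVB/N with vehicle and 814 with DEHP. Of the 8 genes in its list of RNA cleavage, tRNA methylation and inhibition, none passed the threshold with DEHP in either strain. Rnaset2a was the 1 gene higher in FVB/N against C57BL/6J in all 4 strain comparisons, but it and its near-identical copy Rnaset2b had few counts, 10.8 and 0.00583 in FVB.CTL.F1, and reads cannot be split between them with certainty.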

How the data were processed

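RNA of cauda sperm was sequenced in 25 libraries of 5 conditions. Per the labels, the authors removed ribosomal RNA, clipped the RA3 adapter, kept reads of 18 bases or more and mapped them with strand to mm10 with TopHat. The submitters' processing notes also name CASAVA 1.8.2 and Cufflinks. The deposited values are a signal, namely 1 Cuffdiff estimated count per gene and condition that combines 5 libraries, with its variance under the model. The Cuffdiff options and the annotation release are not given in the sources used here.

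From these values, log2 ratios with 1 added, their SD under the model, and sums and medians of gene lists were computed for 8 comparisons and 1 difference of differences. Failed estimates were treated as missing. The named genes are the 7 ribonuclease genes, the genes of the lists, the chromosomal neighbours and the 5 genes most like each ribonuclease gene. The members and the lists were chosen with earlier results of these data known. Positions come from GENCODE M21 on GRCm38, and promoter sequences, found for all 7 genes, from RefSeq on GRCm38.p6. The alternatives were 3 other scalings, pseudocounts of 0.1 and 10, no minimum or a minimum of 100 counts, a threshold of 1 log2 unit, values under 3 set to 3, and differences beyond the SD of the model. The calls of the pairwise comparisons were tested on simulated data, with changes of 3 log2 units in genes with a mean of at least 100 counts. Changes in genes with fewer counts, errors as large as those of Ang, and the difference of differences were not covered. Calculations were made in Python 3.11.15 with pandas 2.3.3, numpy 2.4.6 and matplotlib 3.10.9.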

Additional observations from a re-analysis of the deposited data

Results flagged for a closer look

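Of the 7 ribonuclease genes, 4 had log2 ratios of opposite sign with DEHP in FVB/N and in C57BL/6J. The difference between the strains was not tested in any of them, since there is 1 value per condition. Rnase13 differed by 5.86, with 4.63 in FVB/N and -1.23 in C57BL/6J, but both C57BL/6J counts were under the limit of 3, and the difference was 4.63 with values under 3 set to 3. Ang differed by 0.46, with 0.04 in FVB/N and -0.43 in C57BL/6J. Rnase4 differed by 0.34, with 0.08 in FVB/N and -0.26 in C57BL/6J. Rnase11 differed by 0.20, with 0.09 in FVB/N and -0.11 in C57BL/6J. The differences of Ang, Rnase4 and Rnase11 were smaller than their SD under the model, and the sign in FVB/N changed for all 3 when the counts were scaled to equal totals. Under that scaling the C57BL/6J ratio of Rnase11 also changed sign, to 0.04.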

How the results depend on the processing

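No paired analysis was possible because the deposited table gives 1 value per condition, and leaving out single libraries was not run for the same reason. Of 90 counts of ribonuclease genes past the threshold under the alternatives, 84 stayed within 1.5 times the main count. With a threshold of 1 log2 unit, 3 genes in place of 1 passed in the second generation of C57BL/6J, against C57.CTL.F1 as well as 3 in place of 1 against C57.D300.F1, namely Rnase4, Rnase9 and Ang. Beside them, 702 genes were higher and 1739 lower of all 17114 against C57.CTL.F1. Against C57.D300.F1 it was 461 higher and 1430 lower of 17133. With that threshold 4 in place of 1 passed in FVB.CTL.F1 against C57.D300.F2, and 6 in place of 3 in FVB.D300.F1 against C57.D300.F2. Over all genes, 713 were higher and 1964 lower of 16969 in the former comparison. In the latter, 1195 were higher and 1813 lower of 17122. When the difference also had to exceed its SD under the model, 0 genes in place of 1 passed in both comparisons of C57.D300.F2 with the first generation of C57BL/6J, since the SD of Ang was larger than its difference. Over all genes, 90 higher and 578 lower passed against C57.CTL.F1, and 53 and 543 against C57.D300.F1.

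Of 336 log2 ratios of the 7 genes under another scaling, pseudocount or limit, 327 stayed within 1 SD of the model and 9 did not. All 9 were ratios of Rnase13, which were 8.07 with a pseudocount of 0.1 and 3.78 with one of 10 for FVB.D300.F1 against C57.D300.F1. No ratio past the threshold changed sign. Scaling to equal totals moved the median of all genes by 0.32 in the second generation against C57.CTL.F1, by 0.19 between the strains without DEHP and by -0.26 in FVB.D300.F1 against C57.D300.F2. The share of higher among all genes past the threshold moved from 13.9% to 24.5% in the first of these, from 43.9% to 28.3% in the last and from 81.4% to 68.8% in the difference between the strains' DEHP ratios. Over all genes, the number past the threshold was 2.54 to 7.69 times the main number with a threshold of 1 log2 unit and as low as 0.403 times with a pseudocount of 10.

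The depth limits Rnase13 most, since 3 of its 5 counts lie under the limit of detection.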

Other observations

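Markers of other tissues were measured beside the ribonuclease genes. The 6 seminal vesicle markers summed to 217009 counts in C57BL/6J with vehicle, 69.4 with DEHP and 501 in the second generation, and 325 in FVB/N with vehicle and 207 with DEHP, with Svs4 or Svs2 the most abundant. The 4 prostate and coagulating gland markers found summed to 39.2, 45.8, 278, 48.4 and 106 counts in the same order, with Tgm4 the most abundant. The 6 blood and leukocyte markers summed to 6941, 9910, 6071, 2714 and 4614 counts, and the 6 smooth muscle and stroma markers to 37019, 40045, 41273, 34539 and 27805. The blood and leukocyte sum, like Rnase4, was highest in the first generation of C57BL/6J, intermediate in C57.D300.F2 and lowest in FVB/N. Within that first generation the sum was higher with DEHP, whereas Rnase4 was higher with vehicle. Not all its members had this order, since Hbb-bs was highest in FVB.D300.F1 with 2276 counts and S100a8 in C57.D300.F2 with 263. The other 3 lists had another order of conditions than Rnase4, Rnase9 and Rnase10. Their part in the counts of the ribonuclease genes was not tested.

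Ndrg2, a neighbour of Rnase13, had 4458 counts in C57BL/6J with vehicle, 3167 with DEHP and 341 in the second generation, and 159 in FVB/N with vehicle and 215 with DEHP. Tppp2 had 841, 628, 286, 67.6 and 77.4 counts in the same order. Both genes were highest in the first generation of C57BL/6J, as Rnase4 and Ang were, while Rnase13 between them and Arhgef40 was at or near the limit in all conditions but FVB.D300.F1. Arhgef40 had 182, 188, 222, 384 and 496 counts.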
